A study of Mus musculus with 10 samples.

Results

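The 9 genes described here act with the recombinase DMC1 when a broken meiotic chromosome invades its homolog: Dmc1 itself, its accessory factors Psmc3ip and Mnd1, the single-strand DNA binding partners Meiob and Spata22, the loading factors Brca2, Hsf2bp and Brca1, and the translocase Rad54l. They were taken by symbol from 23420 gene rows, and all 9 were found. The libraries, 5 labelled Ino80WT and 5 labelled Ino80cKO, hold polyA RNA of spermatogenic cells from P18 mice (postnatal day 18) of mixed background; the cells were released from tubules by enzyme digestion and strained, and no sort is described. In Ino80cKO, Ino80 is deleted specifically in the testis with Stra8-Cre, whose promoter is active in male germ cells; INO80 is an ATP-dependent chromatin remodeller. The labels give neither the Ino80 alleles nor whether Ino80WT mice carry Cre. They also do not tie a library to an animal, and every p-value here rests on the spread of libraries, some of which may be technical. The comparison asks which strand exchange transcripts differ in level when INO80 is removed from these cells.

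In meiotic prophase, programmed double-strand breaks are resected to single-stranded DNA. The replication protein RPA coats that DNA first, and BRCA2 then helps to load DMC1 in its place. The recombinase filament searches the homologous chromosome and invades it, a step that the HOP2-MND1 heterodimer (HOP2 is the product of Psmc3ip) stimulates, and failure of the step arrests spermatocytes before crossovers form.

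Levels are given as CPM, a gene's count scaled to a fixed library total after TMM normalisation. Library totals over genes lay between 16750609 and 23700094, and a floor of 3 counts, which covers counting error only, was 0.127 to 0.179 CPM of those totals. The deposited values are 1 count per gene, with no part of Ino80 counted apart, so they do not check its deletion: Ino80 stood at 75.8, 101, 110, 93.1 and 94.8 CPM in Ino80WT 1 to 5 and at 94.5, 94.7, 96.9, 97.5 and 96.7 CPM in Ino80cKO 1 to 5. Library Ino80WT 1 stood apart by transcript length. The 2410 tested genes with at least 6 kb of exon sequence had a median there of 0.28 below their group mean (log2 deviation -0.28), and the 3651 genes under 2 kb a median of 0.16 above it; in the other 9 libraries both medians lay between -0.07 and 0.09. This touches Brca1 and Brca2, whose transcripts are the longest of the 9, and their values are therefore also given without that library. It also touches the members under 2 kb, Psmc3ip, Mnd1, Spata22 and Meiob. Without Ino80WT 1 their log2 fold changes were -1.1, -0.79, -0.67 and -0.44, against -1.16, -0.89, -0.72 and -0.44 with it. Each still had an edgeR adjusted p below 0.05. Adjusted p-values for single genes come from the quasi-likelihood test of edgeR, adjusted by Benjamini-Hochberg over 15265 tested genes, with n = 5 libraries per group. The sign ± gives the SE of a log2 fold change, taken as Ino80cKO over Ino80WT, and otherwise the SD. A gene is said to have fallen or risen where its adjusted p was below 0.05.

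The strand exchange genes split. Psmc3ip, Mnd1, Hsf2bp and Spata22 fell by 1.65-fold to 2.23-fold with no overlap between the groups, Meiob fell 1.35-fold and Rad54l 1.18-fold with overlap, and Dmc1, Brca1 and Brca2 did not pass the test. All 9 passed the filter on low counts. Falls thus numbered 6 of 9, against 27.6% of all tested genes; 4 of 9 were lower with groups that did not overlap, against 22.0% of all tested genes (32.0% in either direction, where the members' count is also 4), and 1 of 9, Psmc3ip, fell at least 2-fold, against 7.72%. Calls in either direction made up 45.9% of all tested genes. With DESeq2 the falls numbered 5, as Rad54l did not pass there (adjusted p = 0.0763). No member rose by edgeR, by DESeq2 or at an unadjusted p below 0.05, against 18.3% of all tested genes that rose. The median log2 fold change was -0.44 over the members and 0.02 over all tested genes. Scaling by library totals in place of TMM moved the median of all genes to 0.19, and 4 members were then lower and 1, Brca1, higher. The members' median was then -0.26. A change of scaling shifts all genes alike, so values relative to the median of all genes (-1.18 for Psmc3ip and -0.09 for Dmc1 with TMM) are nearly the same under either scaling by construction. In bulk RNA, fewer cells of a type and less RNA per cell cannot be told apart.

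**Figure D1:**
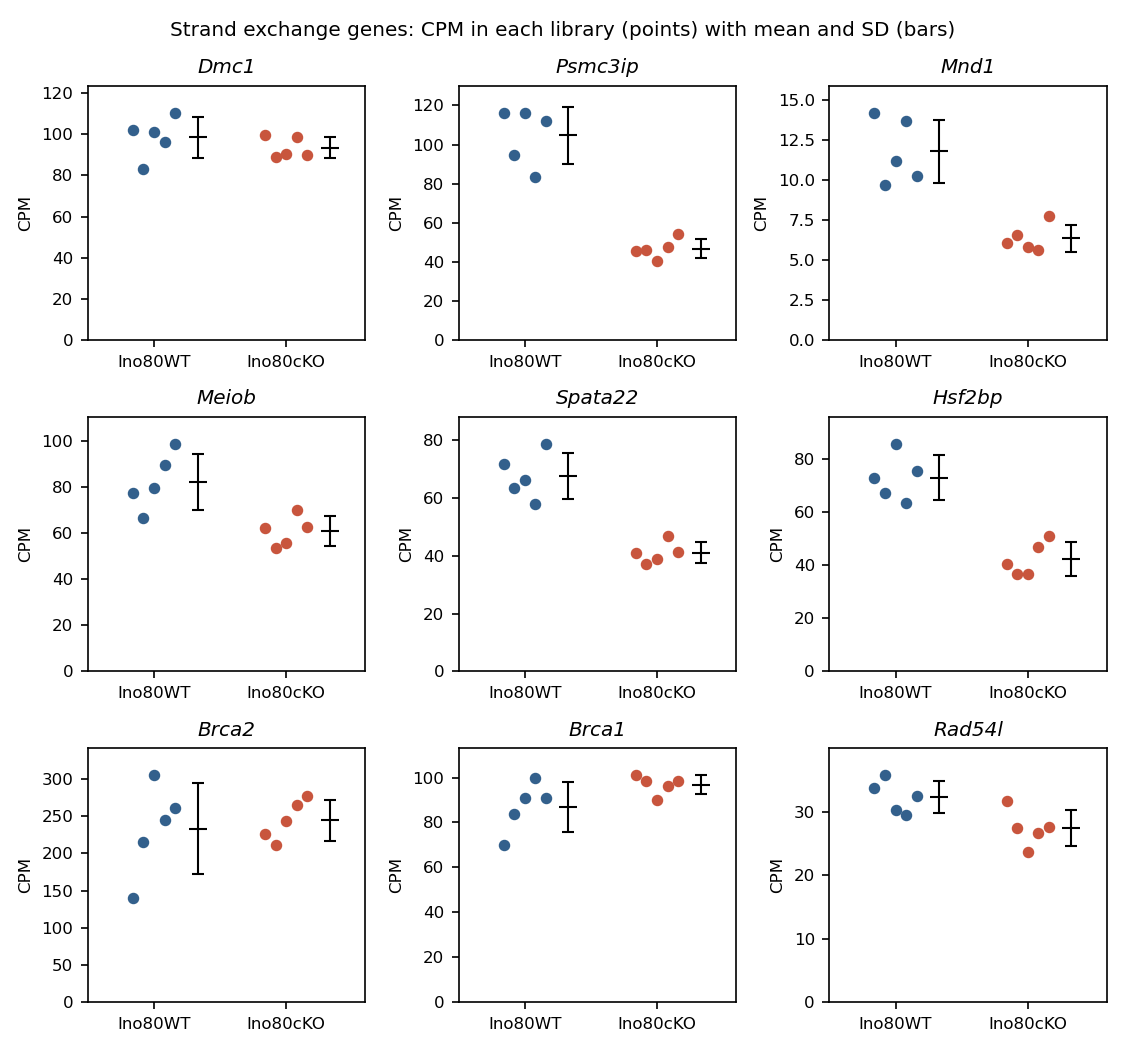
Normalised level (CPM, linear axis from 0) of the 9 strand exchange genes in each library, with Ino80WT in blue and Ino80cKO in red; bars give the mean and SD of 5 libraries. Psmc3ip, Mnd1, Spata22 and Hsf2bp have no overlap between the groups, while Dmc1 lies between 83.2 and 110 CPM in Ino80WT and between 89.0 and 99.5 CPM in Ino80cKO.

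Dmc1 encodes the meiosis-specific recombinase that forms the filament on single-stranded DNA (mm10, chromosome 15, positions 79561497 to 79605159, minus strand). It was measured at 102, 83.2, 101, 96.1 and 110 CPM in Ino80WT 1 to 5 and at 99.5, 89.0, 90.3, 98.5 and 89.6 CPM in Ino80cKO 1 to 5. The Ino80cKO values lie inside the Ino80WT range. The log2 fold change was -0.07 ± 0.08 (adjusted p = 0.459), and the 95% interval ran from 0.843-fold to 1.07-fold.

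Psmc3ip, the HOP2 subunit of the accessory heterodimer (chromosome 11, positions 101092141 to 101095435, minus strand), had the largest fall of the 9. It was at 116, 94.9, 116, 83.7 and 112 CPM in Ino80WT 1 to 5 and at 45.8, 46.3, 40.5, 47.6 and 54.1 CPM in Ino80cKO 1 to 5. The highest Ino80cKO library, number 5, stayed well under the lowest Ino80WT library, number 4. The fall was 2.23-fold (log2 -1.16 ± 0.11, adjusted p = 3.83e-05, 95% interval 1.90-fold to 2.62-fold). Mnd1, the other subunit (chromosome 3, positions 84087933 to 84155798, minus strand), was far less abundant, with 1133 counts over the Ino80WT libraries and 694 over the Ino80cKO libraries. Its levels were 14.2, 9.72, 11.2, 13.7 and 10.3 CPM in Ino80WT 1 to 5 and 6.07, 6.57, 5.83, 5.65 and 7.76 CPM in Ino80cKO 1 to 5. Every Ino80cKO library was again below every Ino80WT library, and the fall was 1.85-fold (log2 -0.89 ± 0.14, adjusted p = 0.000331).

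The promoter windows of these genes are shown because the members that fell and those that did not could be compared for shared letters. RefSeq (GRCm38.p6) gave a window of 300 bases, 250 before and 50 after an annotated start, for 8 of the 9, and Meiob was not matched. That start is not always the gene start. The windows of Hsf2bp, Brca2 and Spata22 lie wholly inside the RefSeq gene spans, which run to 32034895, from 150522297 and from 73326560. The windows of the 4 genes that fell without overlap and of Dmc1 and Brca2, which did not pass, are printed 5′ to 3′ on the gene's strand, with each TCCCGC or its reverse complement GCGGGA in capitals. TCCCGC is the core of elements bound by E2F6, a repressor of germline genes in somatic cells.
Psmc3ip, chr11:101095386-101095685, minus strand: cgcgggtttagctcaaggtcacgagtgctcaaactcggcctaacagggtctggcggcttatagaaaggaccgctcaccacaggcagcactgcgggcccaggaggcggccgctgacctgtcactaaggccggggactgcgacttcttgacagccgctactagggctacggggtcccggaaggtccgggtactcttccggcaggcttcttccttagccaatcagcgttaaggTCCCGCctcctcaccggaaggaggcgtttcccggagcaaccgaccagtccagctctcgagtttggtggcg
Mnd1, chr3:84155737-84156036, minus strand: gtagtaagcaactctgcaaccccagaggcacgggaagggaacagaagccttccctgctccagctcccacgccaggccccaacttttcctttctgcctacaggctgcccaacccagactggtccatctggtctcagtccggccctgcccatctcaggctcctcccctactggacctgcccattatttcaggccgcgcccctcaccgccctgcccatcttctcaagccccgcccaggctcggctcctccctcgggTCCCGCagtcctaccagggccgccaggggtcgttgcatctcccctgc
Spata22, chr11:73329491-73329790, plus strand: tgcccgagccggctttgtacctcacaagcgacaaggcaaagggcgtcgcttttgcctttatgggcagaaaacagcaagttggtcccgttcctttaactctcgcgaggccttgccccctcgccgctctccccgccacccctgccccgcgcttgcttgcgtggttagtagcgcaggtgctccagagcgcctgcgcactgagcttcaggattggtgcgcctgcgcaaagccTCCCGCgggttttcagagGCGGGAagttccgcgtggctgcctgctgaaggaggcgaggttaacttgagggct
Hsf2bp, chr17:32034459-32034758, minus strand: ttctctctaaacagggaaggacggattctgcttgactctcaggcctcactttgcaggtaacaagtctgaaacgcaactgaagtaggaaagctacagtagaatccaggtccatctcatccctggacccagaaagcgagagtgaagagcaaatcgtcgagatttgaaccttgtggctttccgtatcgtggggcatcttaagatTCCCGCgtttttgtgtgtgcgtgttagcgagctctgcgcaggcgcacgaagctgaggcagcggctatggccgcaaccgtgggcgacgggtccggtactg
Dmc1, chr15:79605060-79605359, minus strand: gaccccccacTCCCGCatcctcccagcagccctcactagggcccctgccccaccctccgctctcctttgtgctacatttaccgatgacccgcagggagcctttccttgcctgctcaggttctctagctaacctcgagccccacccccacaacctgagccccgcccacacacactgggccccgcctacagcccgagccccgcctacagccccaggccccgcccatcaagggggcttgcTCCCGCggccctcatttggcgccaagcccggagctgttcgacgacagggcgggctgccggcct
Brca2, chr5:150522371-150522670, plus strand: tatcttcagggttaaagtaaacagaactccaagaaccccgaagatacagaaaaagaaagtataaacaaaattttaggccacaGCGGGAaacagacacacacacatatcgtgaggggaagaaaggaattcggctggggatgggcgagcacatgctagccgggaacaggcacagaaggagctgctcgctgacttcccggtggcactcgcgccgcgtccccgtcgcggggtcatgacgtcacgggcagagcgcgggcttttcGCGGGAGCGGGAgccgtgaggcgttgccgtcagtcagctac

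TCCCGC, on either strand, occurred in 7 of the 8 windows, all but that of Brca1, against 34.9% of the 11202 windows of tested genes. It stood in 5 of the 5 windows of members that fell and in 2 of the 3 of members that did not pass; over all tested genes that fell it stood in 33.2% of windows. The longer E2F form TTTGGCGC was found only in Dmc1 and its variant TTTCCCGC only in Brca2 among the 8; one or the other stood in 2.9% of windows of tested genes. The MYB core, CAACNG or TAACNG, was present in Psmc3ip, Hsf2bp and Rad54l, 3 of 8, against 45.7% of windows of tested genes and 54.7% of the windows of all genes that fell. The NRF1 palindrome stood in Spata22 (2 matches) and Hsf2bp, against 9.6% of windows, the cyclic AMP response element TGACGTCA only in Brca2, against 3.1%, and the STRA8 element CNCCTCAG in none of the 8, against 9.2%. CCAAT occurred in Psmc3ip, Spata22, Brca1 and Rad54l, 4 of 8 against 38.9%, and the GC box CCCCGCCC in Dmc1 and Mnd1, 2 of 8 against 32.4%. Both strands were searched, TTTCCCGC contains TCCCGC, and a match is a description of letters, not a binding site.

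Meiob and Spata22 encode an obligate pair that binds single-stranded DNA beside RPA and keeps recombinase on it in meiosis. Spata22 (chromosome 11, positions 73326560 to 73346592, plus strand) was at 71.6, 63.6, 66.4, 58.0 and 78.6 CPM in Ino80WT 1 to 5 and at 41.0, 37.3, 39.0, 47.0 and 41.2 CPM in Ino80cKO 1 to 5. The groups were separate, and the fall was 1.65-fold (log2 -0.72 ± 0.09, adjusted p = 0.000115). Meiob (chromosome 17, positions 24804301 to 24839788, plus strand) was at 77.4, 66.7, 79.7, 89.6 and 98.6 CPM in Ino80WT 1 to 5 and at 62.3, 53.7, 55.7, 69.9 and 62.6 CPM in Ino80cKO 1 to 5. Ino80WT 2 lay below Ino80cKO 4, so the groups overlapped; the fall was 1.35-fold (log2 -0.44 ± 0.11, adjusted p = 0.00586), and with library totals as the scaling it no longer passed (log2 -0.26, adjusted p = 0.0643).

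Hsf2bp encodes a germline protein that brings BRCA2 to meiotic breaks (chromosome 17, positions 31944769 to 32034895, minus strand). It was at 73.0, 67.3, 85.7, 63.5 and 75.8 CPM in Ino80WT 1 to 5 and at 40.6, 36.8, 36.9, 46.9 and 51.0 CPM in Ino80cKO 1 to 5. No libraries overlapped, and the fall was 1.72-fold (log2 -0.78 ± 0.11, adjusted p = 0.000182). Brca2, which loads DMC1 (chromosome 5, positions 150522297 to 150570147, plus strand), was at 140, 215, 305, 245 and 261 CPM in Ino80WT 1 to 5 and at 226, 211, 244, 265 and 277 CPM in Ino80cKO 1 to 5. Ino80WT 1 was the lowest of the 10, and the other Ino80WT libraries, from 215 to 305 CPM, overlapped the Ino80cKO libraries, from 211 to 277 CPM. The log2 fold change was 0.07 ± 0.17 (adjusted p = 0.756, 95% interval 0.815-fold to 1.35-fold) and -0.05 without Ino80WT 1 (adjusted p = 0.741). Brca1, which acts in end resection and in recombinase loading (chromosome 11, positions 101488761 to 101551955, minus strand), was at 69.9, 83.6, 90.9, 99.6 and 90.8 CPM in Ino80WT 1 to 5 and at 101, 98.5, 90.0, 96.2 and 98.6 CPM in Ino80cKO 1 to 5. Here too Ino80WT 1 was the lowest, the groups overlapped, and the log2 fold change of 0.16 ± 0.09 did not pass (adjusted p = 0.165, 95% interval 0.975-fold to 1.27-fold). Without Ino80WT 1 it was 0.11 (adjusted p = 0.184). With library totals Brca1 was at 0.33 and passed (adjusted p = 0.012).

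Rad54l encodes a motor protein that remodels the joint between the invading strand and its target (chromosome 4, positions 116094261 to 116123700, minus strand). It was at 33.7, 35.7, 30.2, 29.5 and 32.4 CPM in Ino80WT 1 to 5 and at 31.7, 27.4, 23.7, 26.7 and 27.6 CPM in Ino80cKO 1 to 5. Only Ino80cKO 1 reached into the Ino80WT range. The fall of 1.18-fold (log2 -0.24 ± 0.09, adjusted p = 0.0479) sat at the threshold and was lost in 13 of 17 alternatives, among them DESeq2 and leaving out any one of Ino80WT 1, 2 or 5 or Ino80cKO 2, 3, 4 or 5, with adjusted p from 0.0239 to 0.617 over all 17.

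**Figure D2:**
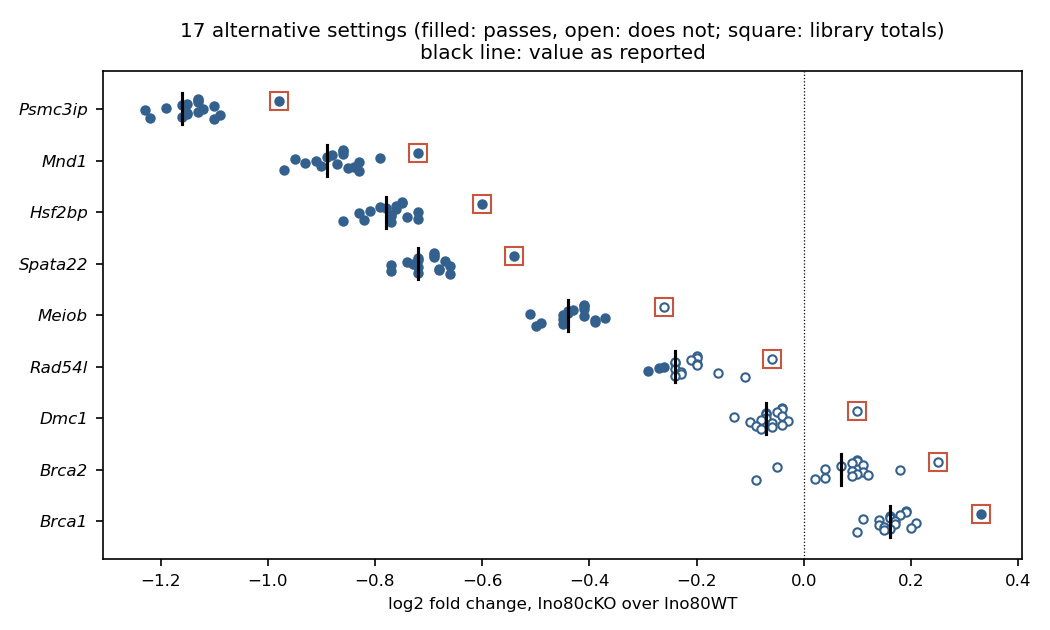
Log2 fold change (horizontal axis, Ino80cKO over Ino80WT) of each strand exchange gene under 17 alternative settings (points; filled where adjusted p was below 0.05) beside the value as reported (black line). Psmc3ip, Mnd1, Hsf2bp and Spata22 passed in all 17, Meiob in 16, Rad54l in 4, Brca1 in 1, and Dmc1 and Brca2 in none; library totals (squares) lie to the right for every gene.

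Ratios of 2 genes within a library need no scaling between libraries and set the changes of 2 partners against each other. For 12 pairs the log2 ratio of counts (0.5 added to each) was compared between the groups by an exact two-sided permutation test, whose smallest possible p over the 252 assignments of libraries is 0.00794, with adjustment over the 12; 8 pairs passed, each with adjusted p = 0.0119 and groups that did not overlap. Psmc3ip fell against Dmc1: the log2 ratio was 0.19, 0.19, 0.21, -0.20 and 0.03 in Ino80WT 1 to 5 and -1.12, -0.94, -1.16, -1.05 and -0.73 in Ino80cKO 1 to 5. That is 1.06 Psmc3ip counts per Dmc1 count in Ino80WT and 0.50 in Ino80cKO, a difference of -1.08 ± 0.11 (SE). Mnd1 differed against Dmc1 by -0.81 ± 0.15, Hsf2bp by -0.72 ± 0.12 and Meiob by -0.36 ± 0.07. Each of these 4 cofactor transcripts was scarcer relative to the recombinase transcript in every Ino80cKO library than in any Ino80WT library. The pairs were chosen with earlier results of these data known. These 4 ratios therefore restate the single-gene falls beside a Dmc1 that did not pass, and add no separate evidence. Spata22, Brca1, Brca2 and Rad54l were not set against Dmc1.

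Pairs of the loading step, and the paralogs Rad54l and Rad54b, also differed. They too were chosen with earlier results of these data known. Their ratios restate the single-gene values and add no separate evidence. Hsf2bp against Brca2, 2 proteins that bind each other, differed by -0.90 ± 0.19, and by -0.72 without Ino80WT 1, which held the highest ratio (adjusted p = 0.0159). Brca1 against Bard1, the subunits of 1 ubiquitin ligase, differed by 0.51 ± 0.08, and by 0.47 without Ino80WT 1 (adjusted p = 0.0159). Bard1 fell from 57.8 ± 3.13 to 45.4 ± 3.58 CPM (log2 -0.35 ± 0.07, adjusted p = 0.00255). With library totals Bard1 was at -0.17 and did not pass (adjusted p = 0.0744). Hsf2bp against Brme1, its meiotic partner (given in the files as 4930432K21Rik), differed by -0.34 ± 0.08, with 4930432K21Rik itself lower by 1.38-fold (adjusted p = 0.0172). That fall no longer passed without Ino80cKO 3 (adjusted p = 0.0509), without Ino80WT 1 and 2 (adjusted p = 0.0893), with the replicate number as a block (adjusted p = 0.0576) or with library totals (adjusted p = 0.0773). Rad54l against its paralog Rad54b differed by 0.42 ± 0.07, Rad54b having fallen 1.58-fold from 57.7 ± 3.38 CPM (adjusted p = 9.6e-05).

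The 2 heterodimers did not pass. Psmc3ip against Mnd1 differed by -0.27 ± 0.16 (adjusted p = 0.143) and Meiob against Spata22 by 0.28 ± 0.10 (adjusted p = 0.0635). Both passed when Ino80WT 4 was left out (-0.41 with adjusted p = 0.0286, and 0.37 with adjusted p = 0.0119), so their call turned on that library, and the misses do not show that the partners kept step. Brca2 against Palb2, which bridges BRCA1 and BRCA2 (0.08 ± 0.22, adjusted p = 0.778), did not pass either. Without Ino80WT 1, which held the lowest log2 ratio (2.31), that difference was -0.1 (adjusted p = 0.5).

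**Figure D3:**
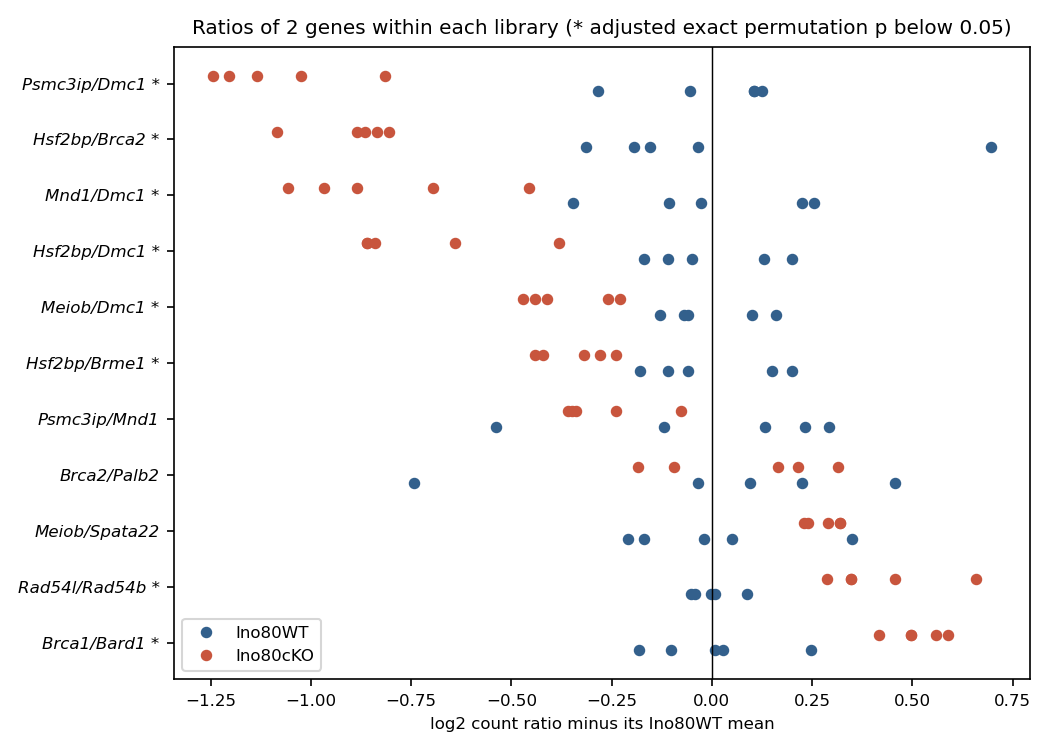
Log2 ratio of the counts of 2 genes in each library, minus the Ino80WT mean of that ratio (horizontal axis), for the pairs described here; blue points are Ino80WT, red points Ino80cKO, and a star marks adjusted exact permutation p below 0.05. The Psmc3ip to Dmc1 ratio has the largest shift (-1.08), and the Ino80WT point far to the right for Hsf2bp against Brca2 is Ino80WT 1.

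Psmc3ip was the most abundant member per length. CPM per kilobase of exon (GENCODE M21 basic set, union of exons, which may differ from the submitters' annotation) was 81.1 ± 11.3 for Psmc3ip in Ino80WT, higher than 94.7% of 15138 tested genes with a length. Spata22 (53.1 ± 6.17), Meiob (45.9 ± 6.77) and Dmc1 (44.3 ± 4.45) followed with overlapping ranges. After a gap came Hsf2bp (23.5 ± 2.74) and Brca2 (21.8 ± 5.72), which overlapped, then Mnd1 (13.5 ± 2.29), Brca1 (13.2 ± 1.69) and Rad54l (10.4 ± 0.818, higher than 53.4% of genes), each overlapping the one before. Brca2 reached down to Mnd1 only through Ino80WT 1: without that library Brca2 lay between 20.1 and 28.5 and Mnd1 between 11.1 and 15.6 CPM per kilobase. Without it the means of Brca2 (23.9 ± 3.51, n = 4) and Brca1 (13.9 ± 0.996) also stood just above those of Hsf2bp (23.5 ± 3.17) and Mnd1 (12.8 ± 1.99), with ranges that overlapped, and Brca1 (from 12.7) no longer overlapped Rad54l (up to 11.5). In Ino80cKO Dmc1 was first at 42.1 ± 2.33 CPM per kilobase, with Psmc3ip at 36.3 ± 3.77 and ranges that overlapped (Psmc3ip up to 41.9, Dmc1 from 40.1), and the mean of Mnd1 (7.29 ± 0.968) was below that of Rad54l (8.81 ± 0.916), again with ranges that overlapped (Mnd1 up to 8.87, Rad54l from 7.63).

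Other strand exchange genes were mostly lower or did not pass. Of 35 tested, 17 fell, 1 rose and 17 did not pass, with a median log2 fold change of -0.22. Over all tested genes 27.6% fell and 18.3% rose. With library totals 12 of the 35 fell and 6 rose, with a median of -0.04, while 2937 of all 15265 genes fell and 5484 rose. The falls included 7 of 12 mediators and partners, 6 of 12 helicases and factors that remove recombinase and 1 of 3 RPA subunits. The RPA count is near the share of all tested genes. The 4 with the smallest adjusted p were Mcmdc2, an MCM-domain protein of meiotic recombination, Fignl1, an ATPase that takes recombinase off DNA, Zswim7, and Rad54b. Mcmdc2 fell from 45.2 ± 2.40 to 24.9 ± 2.11 CPM (1.81-fold, adjusted p = 3.83e-05). Fignl1 fell from 171 ± 18.7 to 86.4 ± 10.1 CPM (1.97-fold, adjusted p = 4.63e-05). Zswim7 and Swsap1 encode the 2 subunits of the mammalian Shu complex, which promotes filament assembly, and they moved in opposite directions. Zswim7 was at 24.0, 21.3, 26.9, 20.8 and 23.3 CPM in Ino80WT 1 to 5 and at 10.8, 11.7, 9.09, 12.4 and 13.7 CPM in Ino80cKO 1 to 5, a fall of 2.01-fold (log2 -1.01 ± 0.12, adjusted p = 7.85e-05). Swsap1 was at 11.1, 9.02, 10.1, 9.99 and 8.94 CPM in Ino80WT 1 to 5 and at 13.7, 12.9, 12.5, 12.2 and 10.8 CPM in Ino80cKO 1 to 5, a rise of 1.26-fold (log2 0.34 ± 0.10, adjusted p = 0.0168); the last Ino80cKO library overlapped Ino80WT.

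**Figure D4:**
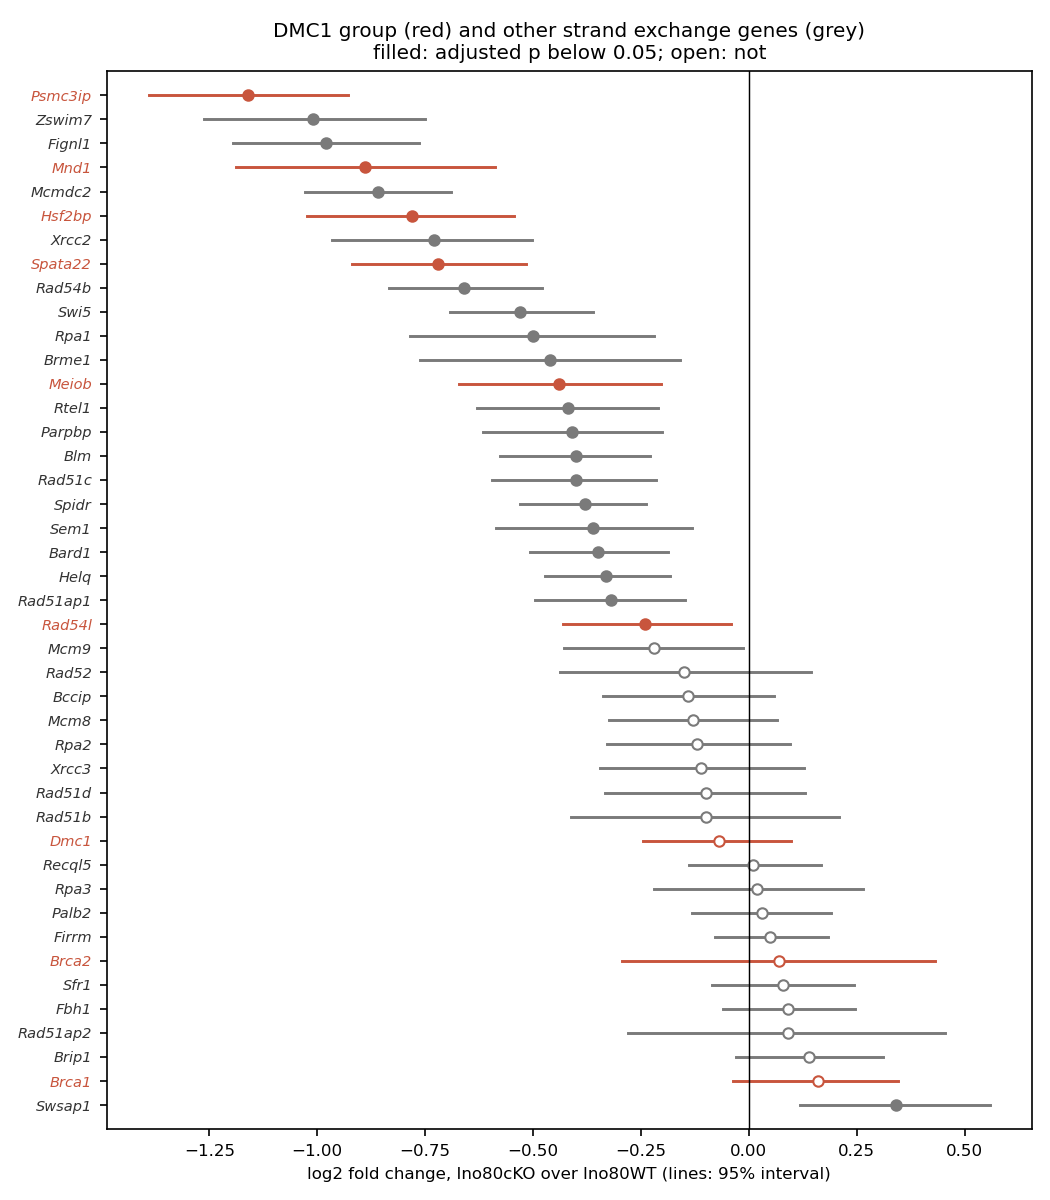
Log2 fold change (horizontal axis, Ino80cKO over Ino80WT) with its 95% interval for the 9 strand exchange genes with DMC1 (red) and the other strand exchange genes that are reported here (grey); filled points had adjusted p below 0.05. Psmc3ip has the lowest value shown and Swsap1 the highest, and Dmc1, Brca2 and Brca1 lie among the genes that did not pass.

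The steps on either side of strand exchange were measured in the same fit. Of 9 tested genes of break formation 3 fell, a share near the 27.6% of all tested genes, with a median of -0.17. The count was 2 or 3 under all alternatives, and the median was 0.01 with library totals and -0.10 without Ino80cKO 3. Spo11, the enzyme that makes the breaks, fell 2.20-fold to 28.5 ± 4.24 CPM and the axis protein gene Hormad1 1.51-fold. Of 11 tested crossover genes 8 fell, with a median of -0.62, led by Cntd1 (2.51-fold) and Mlh3 (1.98-fold). The members' median was -0.44, and the medians were not tested against each other.

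Cell type markers differed in their changes by cell type, and some lists showed few calls. Over all tested genes 27.6% fell and 18.3% rose. All 12 tested pachytene markers fell, with a median of -1.64, and their summed level was 2160 to 3961 CPM in Ino80WT and 689.5 to 1267 CPM in Ino80cKO. Of 8 tested preleptotene to zygotene markers, which include Hormad1, 5 fell and 2 rose (Ccnb3 and Stra8), with summed levels of 2133 to 2847 and 1620 to 1953 CPM. Of 8 spermatogonial markers 1 rose, no more than the share of all tested genes. Among somatic markers 4 of 8 Sertoli (1089 to 1840 CPM in Ino80WT, 1549 to 2360 CPM in Ino80cKO), 3 of 5 Leydig, 1 of 4 peritubular and 5 of 7 macrophage markers (16.4 to 30.4 and 48.1 to 79.2 CPM) rose, and the 4 tested endothelial and blood markers did not pass. Of 8 spermatid markers, Prm1, Prm2 and Tnp2 were at 0 in every library, 4 others were too low to test, and Spaca1, at 6.07 ± 0.871 CPM in Ino80WT and 6.06 ± 0.498 CPM in Ino80cKO, did not pass. Summed, they came to 6.04 to 8.31 CPM in Ino80WT and 5.99 to 7.17 CPM in Ino80cKO. The part of the cell mixture in the members' changes was not tested.

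Genes that share a locus with a member were compared as well, since the library kit keeps strand but the setting used in counting is not given. Distances between starts on opposite strands differ with the annotation and are given for the gene starts of GENCODE M21 and then of RefSeq, the source of the positions printed above. Spata22 and Aspa, a metabolic enzyme gene, start 145 or 316 bases apart and overlap in RefSeq, where Spata22 starts at 73326560; the printed window lies at the GENCODE start, 73329741. Aspa fell 1.82-fold from 8.99 ± 2.0 CPM (adjusted p = 0.00148), beside the 1.65-fold fall of Spata22. Hagh, whose span overlaps the end of Meiob on the same strand, fell 1.72-fold from 114 ± 24.8 CPM (adjusted p = 0.000698). Pomgnt1 starts 150 or 26798 bases from Rad54l and fell 1.17-fold (log2 -0.23 ± 0.08, adjusted p = 0.0266). Its call was lost without Ino80WT 2 (adjusted p = 0.0669) or Ino80cKO 2, 3 or 5 (0.0734, 0.0793 and 0.0566). The same held without Ino80WT 1 and 2 (0.19), with no filter (0.0557) and with the replicate number as a block (0.0897). With library totals Pomgnt1 was at log2 -0.05 and did not pass (adjusted p = 0.549). For the other pairs of starts the neighbour did not pass by edgeR with TMM factors and all libraries. Rrp1b, 249 or 1267 bases from Hsf2bp, was at log2 0.15 ± 0.06 (adjusted p = 0.0622), with no overlap between the groups. It was higher and passed with DESeq2 (adjusted p = 0.0154), RLE factors (0.0354), library totals (0.00276), without Ino80WT 1 (0.0254) and without Ino80WT 1 and 2 (0.0244). Nbr1, 194 or 152 bases from Brca1, was at 0.08 ± 0.06 (adjusted p = 0.322) and passed only with library totals (0.00649). Mlx, which overlaps the end of Psmc3ip, was at 18.4 ± 1.14 CPM in Ino80WT and 18.4 ± 2.16 CPM in Ino80cKO (adjusted p = 0.991). Lrrc41, at the end of Rad54l, was at log2 0.15 ± 0.06 (adjusted p = 0.069), with no overlap between the groups. It passed with DESeq2 (adjusted p = 0.0119), RLE factors (0.0365), library totals (0.00174), without Ino80WT 1 (0.0426) and without Ino80WT 1 and 2 (0.0431). Reads in overlaps that HTSeq finds ambiguous, 0.295% to 0.353% of reads per library, belong to no gene.

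Variation between libraries of 1 group linked the members only in part. Over the 10 libraries, after subtracting each group's mean log2 CPM, Pearson's r was highest for Psmc3ip with Hsf2bp (0.82), Dmc1 with Meiob (0.79) and Brca1 with Brca2 (0.75), and 0.19 for Psmc3ip with Mnd1; these describe 10 points that share library depth and cell mixture. The Brca1 and Brca2 value includes Ino80WT 1, low in both. Genes outside the 9 that varied most like Dmc1 were Tmbim4 (r = 0.97), Lamtor5, Cbwd1, Rars2 and Snhg5 (0.91), and those most like Psmc3ip were Nap1l1 (0.98), Dnajc2, Thoc7, Gnl2 and Wbp4 (0.97). The 10 were picked for the highest r among the tested genes, and such a choice gives high r in itself. Of these 10, all but Snhg5 (adjusted p = 0.0871) fell, by 1.19-fold for Tmbim4 to 1.75-fold for Thoc7. The share of all tested genes that fell was 27.6%. Without Ino80cKO 3 Tmbim4 and Cbwd1 no longer passed (adjusted p = 0.0561 and 0.0565), without Ino80WT 2 Snhg5 did (adjusted p = 0.0151), and with library totals Tmbim4, Lamtor5, Cbwd1 and Gnl2 did not pass (adjusted p = 0.452, 0.0963, 0.384 and 0.223).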

How the data were processed

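The authors deposited whole-number counts of reads per gene symbol, 1 file per library, not normalized; build mm10 and the tools TopHat2, HTSeq and DESeq2 appear in the submitters' processing notes, with no version. Which annotation and strand setting were used is not stated there. Rows that name no gene (5 per file, 35.5% to 44.0% of reads) stayed out. edgeR 4.0.16 in R 4.3.3 was used: filterByExpr on genotype (minimum count 10, minimum total 15) kept 15265 genes, TMM factors were applied, and genotype was the only term of a robust quasi-likelihood fit (glmQLFit, glmQLFTest), called at adjusted p below 0.05. SEs were taken as |log2 fold change|/sqrt(F). On simulated counts for this comparison over 15265 genes, the fit called 86% of 100 genes with a 2-fold change and 33% of 100 genes with a log2 change of 0.5. No other genes were changed in the simulation, whereas 45.9% of tested genes were called in the data. The adjustment is stricter when few genes change, so these shares do not give the power of the real comparison.

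The members, lists, pairs and motifs were chosen with earlier results of these data known. Text names the 9 members, their pair partners, up to 4 other strand exchange genes and 2 break formation or crossover genes per direction with the smallest adjusted p, locus neighbours and the 5 genes most like Dmc1 or Psmc3ip. Of 136 list entries 131 were found. The values of 1 other strand exchange gene, and of the pair that holds it, are not reported here, though counts over the list and the pairs include them. Alternatives were DESeq2 1.42.0, RLE factors, library totals, no filter, a replicate block, non-robust dispersions, leaving out each library, and leaving out Ino80WT 1 and 2, which hold the most Rn45s counts (7.08% and 4.67% of gene counts).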

Additional observations from a re-analysis of the deposited data

Results flagged for a closer look

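Of 104 groups of 5 libraries examined for a single library far from the rest, over the named genes' CPM and the 12 ratios, 3 stood out; chance alone gives about 1 in 20. The log2 ratio of Hsf2bp to Brca2 in Ino80WT was -0.94 in Ino80WT 1, with the other 4 between -1.95 and -1.67; this is the library in which long transcripts were low. The same ratio in Ino80cKO was -2.72 in Ino80cKO 3, with the others between -2.52 and -2.44. Cntd1 stood at 84.9 CPM in Ino80cKO 3 and between 110 and 118 CPM in the other Ino80cKO libraries. Among the Ino80cKO libraries, Ino80cKO 3 also had the lowest summed level of pachytene markers (689.5 CPM). The part of the cell mixture in these values was not tested.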

How the results depend on the processing

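Psmc3ip, Mnd1, Hsf2bp and Spata22 passed in all 17 alternatives, with log2 fold changes from -1.23 to -0.98, -0.97 to -0.72, -0.86 to -0.60 and -0.77 to -0.54. No named gene and no ratio with a call reversed. With library totals as the scaling 1 member, 6 other strand exchange genes, 1 break formation gene and 1 crossover gene were higher, and over all genes 5484 were higher and 2937 lower, against 2793 and 4220; that setting moves all log2 values up by construction. Leaving out 1 library at a time gave 0 to 1 break formation genes higher (1 without Ino80cKO replicate 2). Over the named genes and alternatives, 630 of 680 values kept their side of the threshold, 35 lost a call and 15 gained one. With the replicate block (replicate number as a block) 5 members were lower and 16 other strand exchange genes, Rad54l alone losing its call among the members (adjusted p = 0.0703). Swapping genotype only within replicate numbers, 0 of 12 ratios passed, because 5 pairs allow no exact p below 0.0625. The labels do not state a pairing by replicate number. Correlations of same-numbered deviations ran from -0.47 to 0.196, and only number 1 matched its own number best. These values do not decide whether the numbers mark pairs. Levels near the floor, as for Prm1, limit only lists of markers; the least abundant member, Mnd1, had 115 counts or more in every library.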

Other observations

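The values of 2 further pairs of partners were singled out after they were seen, and the difference within each pair was not tested. Swi5 and Sfr1 encode a heterodimer that stabilises recombinase filaments. Swi5 fell from 349 ± 34.5 to 243 ± 8.54 CPM (1.44-fold, edgeR adjusted p = 0.000229), while Sfr1 was at 246 ± 18.4 CPM in Ino80WT and 260 ± 19.9 CPM in Ino80cKO (adjusted p = 0.406). Firrm (BC055324 in the files) encodes the partner of FIGNL1. It was at 104 ± 4.48 CPM in Ino80WT and 108 ± 4.38 CPM in Ino80cKO (adjusted p = 0.488), beside the 1.97-fold fall of Fignl1. Ino80WT 1 held the highest level of Sem1 (given as Shfm1), a small BRCA2 partner, at 126 CPM against 84.3 to 95.1 CPM in the other Ino80WT libraries.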
